A study of Mus musculus with 3 samples.

Results

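On day 7 of an in vitro Leydig cell differentiation, some cells carried many transcripts of elastin and of proteins that coat elastic and collagen fibres. They were chosen by a score, the unique molecular identifiers (UMIs, 1 per captured transcript) of Cilp, Eln, Mfap4, Mfap2, Igfbp5 and Fmod (the rule genes) divided by all UMIs of the cell. Of the 2171 day 7 cells in the authors' filtered table, 1742 held at least 1500 UMIs, and the 261 cells in the top 15% of the score are the elastin and microfibril cells described here. They were compared with the 871 cells in the lower 50% of the score, and 610 cells lay between. The whole series holds 6124 cells in 3 libraries. Because the score is a range cut at a fixed share, the 261 cells are the upper end of that range. The cut does not define a separate cell type, and whether the members form one was not tested.

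All 3 libraries (days 4, 7 and 14, 1 Drop-seq library each) came from 1 culture design. Testes of C57BL/6 males aged 8–12 weeks were dissociated, and Sca1+/cKit- cells were sorted and plated at 100000 cells per well. After 18 hours of recovery in serum, the cells were expanded for 3 days with PdgfAA, PdgfBB and Fgf2 (each 10 ng/ml) and 0.5 uM SAG, an agonist of the hedgehog receptor component Smoothened. For differentiation the same 4 agents stayed, with 5 mM LiCl2, which activates Wnt signalling, and 10 uM DAPT, which blocks Notch cleavage, added. No untreated culture stands beside these libraries, so every day carries the agents of its phase, and a difference between days also holds any difference between libraries. Cells of 1 library are not replicates. Levels are UMIs of a gene per 1000000 UMIs of the same cells (CPM), and values are descriptions with exact 95% intervals for counting error, and no test between groups of cells was run.

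Elastic fibres form in the extracellular matrix when elastin is laid onto a scaffold of fibrillin microfibrils and crosslinked by lysyl oxidases. Fibulins and latent TGF-beta binding proteins sit on the same scaffold, while small leucine-rich proteoglycans such as fibromodulin and decorin bind collagen fibrils. In the testis, such matrix is laid down by the interstitial and peritubular mesenchyme, which also gives rise to the steroid-producing Leydig cells. Eln encodes elastin. Mfap2 and Mfap4 encode microfibril-associated proteins, Fmod fibromodulin, Cilp a matrix protein first described in cartilage, and Igfbp5 a secreted binding protein for insulin-like growth factors.

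On GRCm38 the 6 genes lie on 5 chromosomes: Eln at chr5:134702593-134747323 on the minus strand, Cilp at chr9:65265180-65280605 on the plus strand, Mfap4 at chr11:61485431-61488900 on the plus strand, Mfap2 at chr4:141010418-141015984 on the plus strand, Fmod at chr1:134037254-134048277 on the plus strand and Igfbp5 at chr1:72857932-72874884 on the minus strand. Drop-seq counts reads at the 3′ end of whole transcripts, so no exon is resolved. RefSeq promoters (GRCm38.p6, 250 bases before the start) were found for Cilp, Fmod, Igfbp5 and Mfap2. The windows of 3 genes are shown because the results turn on them: Cilp gave the most UMIs to the score, Igfbp5 divided the members, and Ankrd1 had the smallest ratio among other genes with at least 100 CPM in a group. Capitals mark GGAATG or, on the other strand, CATTCC, the letters bound by TEAD factors.
Cilp, chr9:65264930-65265179, plus strand: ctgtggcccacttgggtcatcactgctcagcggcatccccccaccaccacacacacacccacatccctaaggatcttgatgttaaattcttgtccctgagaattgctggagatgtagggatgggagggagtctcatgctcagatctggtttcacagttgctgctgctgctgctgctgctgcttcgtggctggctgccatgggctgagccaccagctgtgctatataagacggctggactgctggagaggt
Igfbp5, chr1:72874866-72875115, minus strand: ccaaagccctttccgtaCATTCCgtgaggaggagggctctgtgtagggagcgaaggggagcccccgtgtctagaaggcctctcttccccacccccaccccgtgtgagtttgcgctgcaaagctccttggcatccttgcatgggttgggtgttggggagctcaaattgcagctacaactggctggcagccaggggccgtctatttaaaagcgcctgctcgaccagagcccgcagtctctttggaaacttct
Ankrd1, chr19:36119845-36120094, minus strand: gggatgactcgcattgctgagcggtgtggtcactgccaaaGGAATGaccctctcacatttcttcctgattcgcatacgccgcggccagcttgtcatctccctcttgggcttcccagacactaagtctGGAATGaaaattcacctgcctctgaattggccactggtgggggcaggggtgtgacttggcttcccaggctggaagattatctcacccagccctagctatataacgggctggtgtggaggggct

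The TEAD letters stood at 210 and 123 bases before the start of Ankrd1, at 233 bases before that of Igfbp5, and not in this window of Cilp. Over 32851 mouse promoters of the same length, 12.6% held them on either strand. The letters AAGGTCA or TGACCTT, bound by steroidogenic factor 1, occurred in none of the 3 windows and in 4.08% of all promoters. Of the named genes with a RefSeq promoter, 3 of 11 that were higher in members and 3 of 9 that were lower held the TEAD letters. A gene was counted when any of its windows held them, and Apoe and Fez1 had 3 windows each with the letters in 1. The 12.6% is a share of single windows, so the gene counts cannot be read directly beside it. Such matches describe the sequence and do not mark a bound site.

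Some features of the libraries touch the comparison. Members held a median of 4173 UMIs and 1984 genes per cell, against 3615 UMIs and 1792 genes in the lower 50% and 6338 UMIs in the cells between. The median mitochondrial share was 1.56% in members and 1.29% in the lower 50%. No cell barcode was shared between the filtered libraries. Within day 7, however, 638 of the 1742 barcodes had the same first 11 of 12 bases as another barcode, in 185 groups, where random barcodes would give 0.362 pairs. The expression profiles of the 831 such pairs were more alike than those of other pairs, with a median correlation of 0.10 against -0.0012 over 500 genes on counts brought to 1500 UMIs per cell. These barcodes made up 24.5% of members (64 cells) and 45.8% of the lower 50% (399 cells), so the number of distinct cells may be lower, with 231 different first 11 bases among the 261 members. The summary values are given below with such barcodes added together and with all of them removed.

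The score of the members ran from 9.21 to 64.2 rule-gene UMIs per 10000 UMIs, with a median of 16.3. Just inside the cut the last cell stood at 9.21, and the first cell outside stood at 9.19. There were 27 members within 10% above the cut and 24 other cells within 10% below it. A cell near the cut held only a few of these UMIs, 3 to 10 among the nearest members and 2 to 6 among the nearest other cells. No rule-gene UMI at all was found in 846 of the 871 cells of the lower 50%. The day 7 cut was reached by 125 of 2227 day 4 cells (5.61%, exact Clopper-Pearson 95% interval 4.69–6.65%) and by 78 of 794 day 14 cells (9.82%, 7.84–12.1%).

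**Figure D1:**
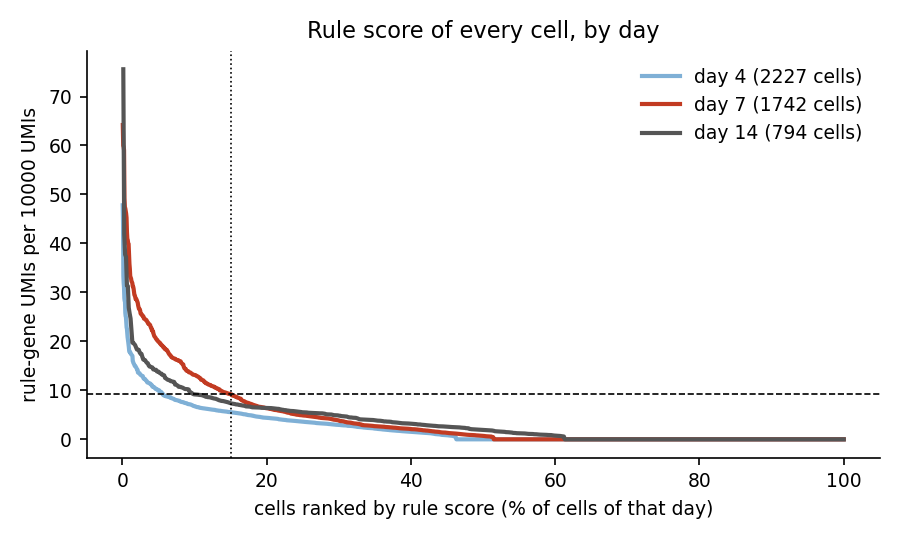
Each line ranks the cells of 1 day (x axis, % of that day's cells with at least 1500 UMIs) by rule-gene UMIs per 10000 UMIs (y axis). The dotted line marks the top 15% and the dashed line the day 7 cut of 9.21. The day 7 curve lies above the other 2 through most of the top 15% and falls without a step, and 48.6% of day 7 cells sit at 0.

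The 6 genes were not carried equally. These levels chose the cells and are a description only. Summed over members, Cilp reached 627 CPM (exact Poisson 95% interval 588–668), Eln 325 (297–355), Mfap4 321 (293–351), Mfap2 279 (253–306), Igfbp5 192 (171–215) and Fmod 151 (132–171). Cilp gave more UMIs than any other rule gene in 97 members, Eln in 63, Mfap4 in 36, Mfap2 in 29, Igfbp5 in 23 and Fmod in 13. At least 3 of the 6 genes were detected in 175 members (67.0%), all 6 in 5 members and a single one in 21. Igfbp5 stood apart: only 45 members (17.2%) held a UMI of it, against 46.4% for Fmod and 59.8–65.1% for the other 4, and 1 cell gave 12.9% of its UMIs.

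The shares of rule genes in these groups also follow from the choice of cells and are a description only. With every cell thinned to 1500 UMIs, 37.9% of members held an Eln UMI (exact Clopper-Pearson 95% interval 32.0–44.1%, and 62.8% before thinning). The share was 8.52% in the cells between. It was 0 of 871 in the lower 50%, which the ranking on rule-gene UMIs sets. Day 14 cells with at least 3 UMIs of Cyp17a1, a Leydig enzyme of androgen synthesis, served as a comparison from another library. They were presumed to make little elastin. Of these 109 cells, at a median of 6548 UMIs against 4173 in members, 5.50% held an Eln UMI after thinning (2.05–11.6%) and 21.1% before it. Over all cells, Eln stood at 111 CPM on day 14 and at 62.6 on day 7. Thinned shares for Cilp were 48.3% in members and 1.83% in the Cyp17a1 cells. For Igfbp5 they were 11.1% and 1.83%.

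**Figure D2:**
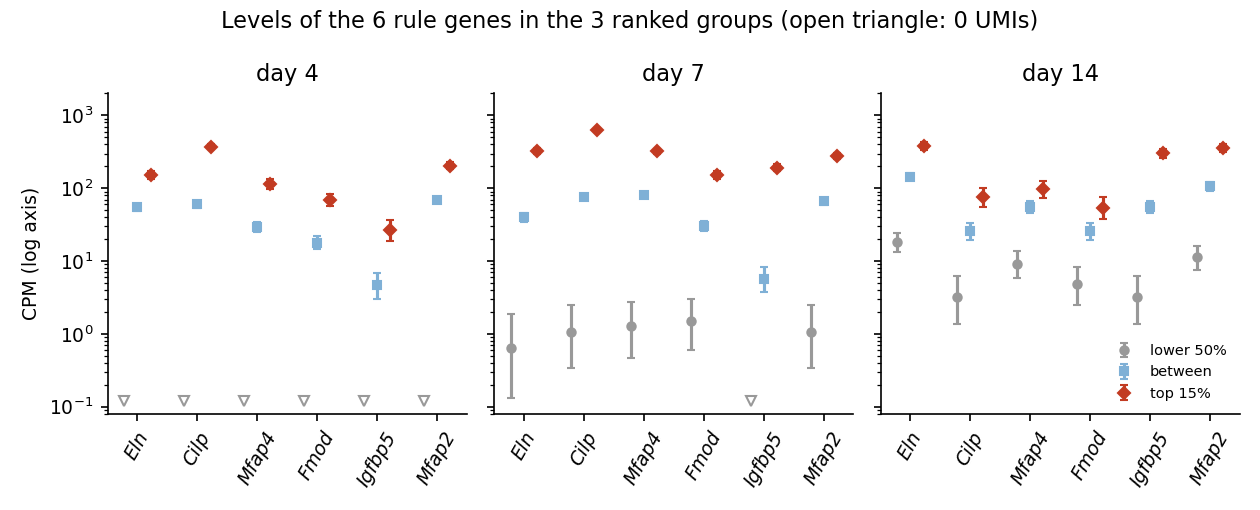
CPM of the 6 rule genes (y axis, log scale) in the top 15%, the cells between and the lower 50% of each day, with exact Poisson 95% intervals. Open triangles mark 0 UMIs. The separation comes from the ranking itself. Cilp is highest in the top 15% on days 4 and 7, and Eln and Mfap2 are highest on day 14.

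Whether the genes travel together was asked by ranking on 5 genes and reading the sixth, which then had no part in the choice of cells. On day 7 all 6 left-out genes were higher in the top 15%. The ratio of CPM over the lower 50% was 15.9 for Eln (95% interval 12.4–20.6), 14.0 for Fmod (9.98–20.2), 10.4 for Cilp (8.84–12.2), 8.89 for Mfap2 (7.21–11.01), 8.80 for Mfap4 (7.24–10.7) and 6.66 for Igfbp5 (4.59–9.79). Each of the 6 genes was thus higher in cells chosen by the other 5, with the smallest ratio for Igfbp5. The 6 genes were picked as a set with earlier results of these data known. The day 7 ratios therefore could hardly come out otherwise and are a description only. On days 4 and 14 the 5 genes other than Igfbp5 were also higher, by ratios of 2.90 to 5.89 on day 4 and 1.75 to 5.54 on day 14. Igfbp5 was not separated on either day: its ratio was 0.37 (0.095–1.03) on day 4, from 4 and 36 UMIs, and 1.17 (0.80–1.68) on day 14. Whether the days differ was not tested, as each is 1 library.

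Across the other genes, 8748 had at least 50 UMIs in members and the lower 50% together. A gene is called higher or lower here when its level differed at least 1.5-fold and the 95% interval of the ratio excluded 1. On day 7, 774 genes were called higher in members (8.85%) and 728 lower (8.32%). With barcodes alike in 11 bases added together the counts were 826 and 761, and with them removed 788 and 753. The same split was made on day 4 (334 cells against 1113) and on day 14 (119 against 397), libraries that the rule did not use. Day 4 gave 495 genes higher (5.78% of 8563) and 451 lower (5.27%), day 14 gave 427 higher (6.62% of 6447) and 415 lower (6.44%). On day 4, 1197 cells had no rule-gene UMI, so its lower 50% was drawn at random among them.

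Smoc2 and Sfrp1 had the largest ratios among genes with at least 100 CPM in a group. Smoc2, a matricellular calcium-binding protein, stood at 783 CPM in members and 34.5 in the lower 50% on day 7, a ratio of 22.7 (95% interval 19.3–26.9). It stood at 297 and 57.0 on day 4, and at 1345 and 1182 on day 14. Smoc2 thus separated the groups on days 4 and 7, while on day 14 it was high throughout. Sfrp1, a secreted Wnt antagonist, stood at 356 and 18.0 on day 7, a ratio of 19.8 (15.7–25.2), at 312 and 66.2 on day 4, and at 663 and 236 on day 14. Its top group exceeded the lower one on all 3 days.

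Gpx3 and Apoe were also among the highest. Gpx3, a secreted glutathione peroxidase, stood at 377 and 34.3 CPM (ratio 11, 9.22–13.2), and Apoe, a lipid carrier, at 592 and 66.7 (8.89, 7.81–10.1). Neither was higher on all 3 days. Gpx3 stood at 58.9 and 58.2 on day 4, where 1 cell gave 68.5% of the lower value, and Apoe at 114 and 73.3 on day 4 and at 1937 and 2252 on day 14. Cygb, cytoglobin, was higher on all 3 days, with ratios of 2.22, 6.45 and 3.14. Fgl2 (3.07, 6.08 and 3.85), Serping1, the C1 inhibitor of complement (2.15, 5.45 and 2.89), and Dner, a membrane protein with EGF repeats (2.17, 8.22 and 3.10), did the same. The others among the 15 highest were Entpd2, an enzyme that breaks down extracellular ATP (9.06), Serpina3n (7.82), Pcsk5, a proprotein convertase (7.42), Igfbp4 (5.73), Clca3a1 (5.55), C1qtnf7 (4.92) and Fxyd1, a regulator of the sodium pump (4.54). Of these 15 genes, 14 were called higher on day 4 and 9 on day 14, and none was called lower.

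Among genes at that level, Ankrd1 had the smallest ratio. This nuclear ankyrin repeat protein stood at 15 CPM in members and 142 in the lower 50%, a ratio of 0.11 (0.067–0.16). On day 4 it stood at 81.0 and 212, and on day 14 at 0 and 8.01, where 1 cell gave 70.0% of 20 UMIs. S100a4, a calcium-binding protein of motile cells, stood at 140 and 553 on day 7 (0.25, 0.22–0.29) and at 588 and 1093 on day 4. Ccnd1, cyclin D1, stood at 119 and 407 (0.29, 0.25–0.34), and Csf1, a macrophage growth factor, at 155 and 547 (0.28, 0.25–0.32).

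Further genes of this kind were S1pr3, a sphingosine-1-phosphate receptor (0.21), Hbegf, an EGF-family ligand (0.31), Aldh1a3, an enzyme of retinoic acid synthesis (0.31), Pvrl3, also called nectin-3 (0.31), Fez1 (0.32), Anxa1 (0.33), Plk2 (0.33), Ripk2 (0.34), Prkg2 (0.34), Lgals3 (0.36), and Cav1, which coats caveolae (0.36). On day 4, 12 of these 15 genes were called lower and none higher. On day 14 only 9 of the 15 were measured. Of these 9, S100a4 and Lgals3 were called lower, where 1 cell gave 65.5% and 84.0% of the lower-50% UMIs. Ccnd1, Aldh1a3 and Pvrl3 were called higher. The day 7 and day 4 pattern of the lower genes was therefore not seen on day 14.

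**Figure D3:**
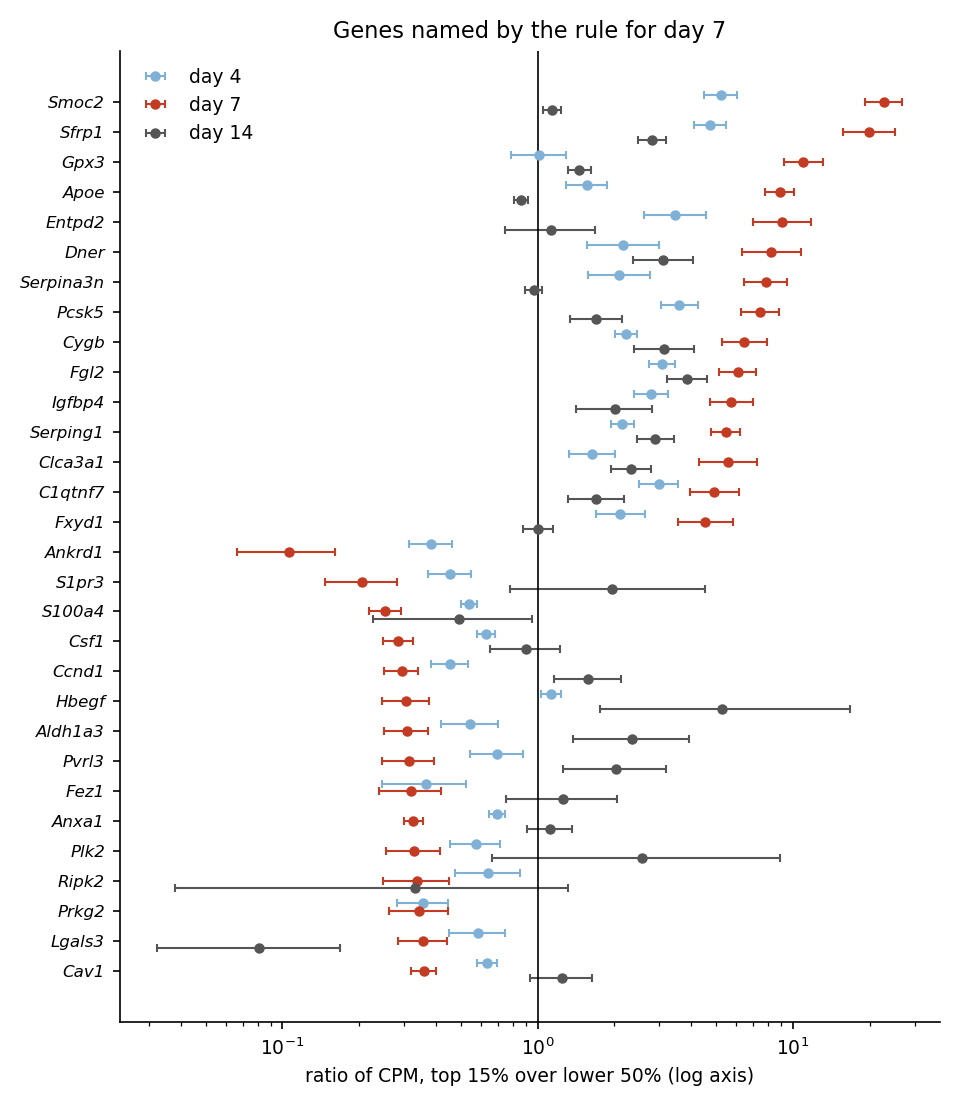
Ratio of CPM in the top 15% over the lower 50% (x axis, log scale) with 95% intervals for the 15 highest and 15 lowest such genes of day 7, on each of 3 days. Ratios with 0 UMIs on a side are not drawn. Smoc2 is highest at 22.7 and Ankrd1 lowest at 0.11 on day 7, and the lower genes scatter around 1 on day 14.

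Elastic fibre genes that had no part in the score did not move as a block. Of 17 measured, 6 were called higher and 3 lower on day 7, and the median log2 ratio was 0.25, where all genes had a median near 0. Day 7 counts of this and the following lists are read beside 8.85% higher and 8.32% lower over all genes. Their day 4 counts are read beside 5.78% higher and 5.27% lower, and their day 14 counts beside 6.62% and 6.44%. Higher were the fibulins Fbln5 (500 against 202 CPM, ratio 2.47, 2.25–2.72) and Fbln1 (22.8 against 3.39, from 35 and 16 UMIs), Efemp1 (136 against 60.5), the latent TGF-beta binding proteins Ltbp3 (127 against 49.95) and Ltbp4 (27.4 against 5.29), and the crosslinking enzyme Loxl2 (392 against 217). Lower were Loxl3 (43.7 against 123), Fbln2 (685 against 1349) and Ltbp2 (203 against 322). The fibrillin gene Fbn1, the core of the microfibril, stood at 834 and 746, and the main crosslinking enzyme Lox at 1375 and 1888, neither past 1.5-fold (ratios 1.12, 1.05–1.19, and 0.73, 0.69–0.76).

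The label of these cells therefore rests on the score genes, which chose the cells, and outside them on only part of the elastic fibre set. Fbn1 differed by less than 1.5-fold, and Lox stood below the lower 50%, short of 1.5-fold. Summed over the list outside the score, members held 5277 CPM and the lower 50% held 5860. Per cell, at 1500 UMIs, the summed list had a median of 7 UMIs in members and 8 in the lower 50%. With alike barcodes removed the median log2 ratio was 0.11, and with equal weight per cell 0.073. On day 4 the median was 0.21, with 3 genes higher (Fbln5, Ltbp4, Loxl2) and 2 lower (Fbln2, Loxl3) of 17. On day 14 it was 0.98, with 7 of 12 higher and none lower: Fbn1 (297 against 150), Fbln5 (717 against 179), Fbln2, Mfap5, Lox, Loxl1 and Emilin1. Fbln5 was called higher on all 3 days.

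Small leucine-rich proteoglycans outside the score had a median log2 ratio of 1.69, with 5 of 6 measured genes higher. Dcn, decorin, stood at 784 and 232 CPM (ratio 3.38, 3.11–3.67). Prelp stood at 96.6 and 30.5, Lum, lumican, at 40.4 and 10.2, Ogn at 28.7 and 6.14, and Ecm2 at 15 and 7.41. Bgn, biglycan, the most abundant, stood at 2762 and 2163 and was not past 1.5-fold. On days 4 and 14 the medians were 1.03 (6 of 7 higher) and 0.75 (4 of 6 higher and Aspn lower), and Dcn was higher on both.

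Collagens gave a median of 0.46, with 7 of 19 higher and 2 lower, the latter near the share over all genes. The fibrillar Col3a1 stood at 6904 and 2647 (ratio 2.61, 2.54–2.68), while Col1a1 and Col1a2 were just past the 1.5-fold line at ratios of 1.52 and 1.55. Col6a1 (2.5), Col6a2 (2.25) and Col11a1 (1.61) were also higher, and Col14a1, a collagen of fibril surfaces, stood at 32.0 and 2.33, from 49 and 11 UMIs with 1 cell giving 45.5% of the lower value. Col6a3 (0.55) and Col5a3 (0.53) were lower. The chains of type VI collagen were thus split, and the basement membrane chains Col4a1 and Col4a2, at ratios of 1.41 and 1.38, did not pass.

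Matrix enzymes and adhesion proteins were mixed. Of 16 proteases and inhibitors 7 were higher, among them Htra3, a serine protease (86.1 against 11.6), Mmp2, a gelatinase (349 against 114), Timp3 (1465 against 594) and Adamts5 (308 against 121), and Timp1 was lower (7604 against 11440). Adamts2, which trims procollagen, stood at 697 and 211, with 4 of 18 genes of collagen processing higher and 2 lower, the latter near the share over all genes. Of 19 matricellular and adhesion genes 7 were higher, with Mgp, an inhibitor of calcification, at 1821 and 518 and Itgbl1 at 616 and 194, and 5 were lower, with Thbs1 at 209 and 580. Of 5 genes that the study tied to matrix myofibroblasts, 4 as markers with Pdgfa named beside them, none was higher: Postn (292 against 509), Tnc (116 against 190) and Pdgfa (89.4 against 239) were lower and Clu and Col5a2 did not pass. That list was chosen by the study on these samples.

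Signalling lists were small, and their shares are read beside 8.85% higher and 8.32% lower over all genes. Among insulin-like growth factor genes outside the score 5 of 10 were higher and none lower, including Igf2 (31.3 against 2.75) and Igfbp3 (24.1 against 4.87). Among hedgehog genes, read under SAG, the receptor gene Ptch1 was higher (53.5 against 11.2, ratio 4.77, 3.34–6.87), while the receptor component Smo and Gli3 did not pass. On day 4, Ptch1, Gli1 and Gas1 were higher. Of 20 TGF-beta genes 5 were lower, including Inhba (434 against 884) and Thbs1, and 2 were higher, Tgfbi and Tgfbr3.

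Wnt modulators included the higher Wisp2 (186 against 55.5) and Dkk3 (61.3 against 20.7) and the lower Sfrp2 (12.4 against 36.8), 3 of 7 higher and 1 lower with Sfrp1. Retinoid genes were split 2 and 2 of 6, with Aldh1a1 (827 against 311) and Aldh1a2 (68.5 against 43.6) higher, and Aldh1a3 and Crabp1 (9.79 against 93.3) lower. Grem1, a BMP antagonist, stood at 12.4 and 92.9, where 1 cell gave 42.1% of the member UMIs, and Bmper at 144 and 53.1, 1 lower and 1 higher of 8 BMP genes, near the shares over all genes. Of 4 Notch targets, read under DAPT, Heyl alone was higher (32.0 against 13.8). Genes of stromal progenitors were higher for 6 of 13, among them Pdgfra (129 against 46.6), Tcf21 (39.8 against 14.6), Ly6a, which encodes Sca1, the antigen of the sort (115 against 51.4), Ly6e and Gsn. Nes (15 against 75.1) and Thy1 (7.18 against 34.1) were lower.

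Contractile genes of myofibroblasts and smooth muscle had a median log2 ratio of -0.67, with 16 of 23 lower and none higher. Acta2, smooth muscle actin, stood at 1386 CPM in members and 3162 in the lower 50% (0.44, 0.42–0.46), and Tagln, transgelin, at 541 and 1201. Actg2 stood at 5.22 and 62.2, Tpm2 at 462 and 1125, and Cnn2 at 293 and 729. At 1500 UMIs per cell the list's median was 14 UMIs in members and 28 in the lower 50%, and no member was at 0. On day 4 the median was 0.054, with S100a4 lower and Myh11 higher, and on day 14 it was 0.69, with 10 of 18 higher and 1 lower. Acta2 on day 14 stood at 165 and 79.7, where 1 cell gave 58.8% of the lower value.

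Cell cycle genes were divided. Of 28 mitosis genes 17 were lower and none higher, with a median of -0.65. Hmmr stood at 39.8 and 110 and Plk1 at 11.1 and 33.2. With cells ranked within 5 bins of total UMIs the median was -0.17. None of 23 S phase genes was called in either direction, with a median of 0.059. On day 4, 26 of 28 mitosis genes and 7 of 23 S phase genes were lower.

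**Figure D4:**
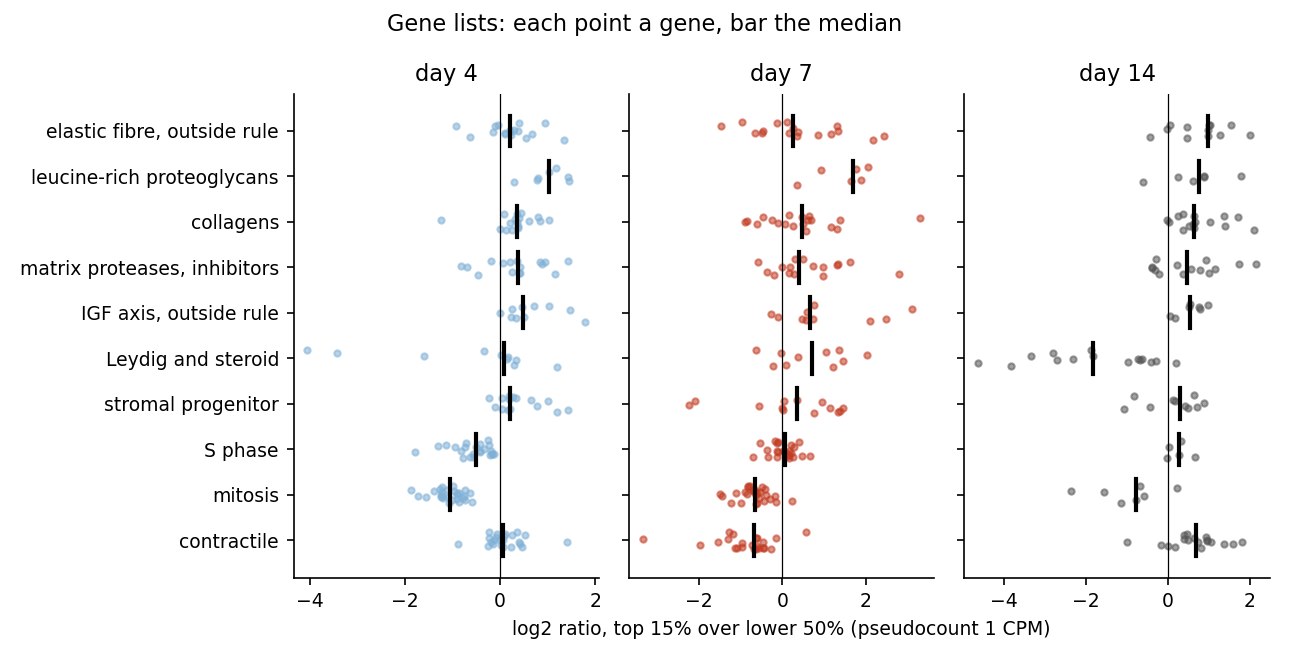
Log2 ratio of the top 15% over the lower 50% (x axis, pseudocount 1 CPM) for the measured genes of 10 lists on each day, with a point for each gene and a bar for the median. Proteoglycans and collagens lie to the right on all 3 days, contractile genes lie left on day 7 only, and Leydig genes lie left on day 14.

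Markers of other cell types were looked for over whole lists. Of 12 macrophage genes 9 were at 0 UMIs in members, Adgre1, Ptprc, C1qa and Cd74 among them. Their summed level was 9.79 CPM in members and 33.7 in the lower 50%, where 1 cell gave 87.9% of the Lyz2 UMIs, and Lyz2 was lower. Of 12 endothelial genes 7 were at 0 in members, Pecam1, Kdr, Tie1 and Vwf among them. They summed to 124 and 126, mostly from Cdh5 (101 and 114). The 12 germ cell genes summed to 30.7 in both groups, with 6 at 0 in members, Ddx4 and Dazl among them. Of 3 measured pericyte genes 2 were lower, Cspg4 and Pdgfrb. Of 15 cartilage and tendon genes 5 were at 0 in members, Col2a1, Chad and Tnmd among them, and of the 2 measured Matn2 was higher (104 against 50.4). Sertoli genes were higher for 3 of 5, Ctsl, Aard and Defb19, and not for Sox9 or Clu. Interferon genes were lower for 6 of 16 and higher for 1. For Rsad2, 1 cell gave 63.4% of the UMIs of the lower 50%. Of 4 nuclear RNAs 3 were higher, Neat1, Meg3 and Kcnq1ot1, at ratios of 1.65, 1.51 and 1.76. Immediate-early and heat shock genes (13 measured) and mitochondrially encoded genes (8 measured) had no call. The part of these markers and of depth in the other results was not tested.

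Leydig and steroid genes were higher for 5 of 10 and lower for 1, with a median of 0.71. Nr5a1, which encodes steroidogenic factor 1, stood at 33.9 and 15.9 CPM. Scarb1, a cholesterol receptor, stood at 97.9 and 41.5, and Fdxr, which feeds electrons to steroid enzymes, at 71.1 and 25.4. Star, which carries cholesterol into mitochondria, was lower, at 264 and 411, and Cyp11a1, the first enzyme of steroid synthesis, stood at 78.3 and 80.2. The higher value of Hsd3b1, the next enzyme, came almost wholly from 1 member: this cell held 79 of its 85 UMIs in members (92.9%) and 47 of 120 Cyp11a1 UMIs. Without it the median of the list was 0.17.

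Nearly all Cyp11a1 and Hsd3b1 UMIs of the members lay in the cells with Igfbp5, a division made after these values were seen. Star did not follow it, at 313 CPM with Igfbp5 and 251 without (ratio 1.25, 0.99–1.57). Scarb1 UMIs were less concentrated, with 66 and 84, though its level was higher with Igfbp5 (206 and 69.2 CPM). The 45 members with an Igfbp5 UMI had a median depth of 6276 UMIs and the 216 without had 3796. Cyp11a1 stood at 369 CPM with Igfbp5 (118 UMIs, in 8 cells) and at 1.65 without (2 UMIs, in 2 cells). Hsd3b1 had 85 UMIs in 4 cells with Igfbp5 and none in the 216 others. Cyp11a1 or Hsd3b1 was detected in 9 of the 45 cells, in 2 of the 216 (0.93%) and in 14 of the 871 cells of the lower 50% (1.61%). These enzymes were thus detected in few members, and also in cells outside them. Among the 23 other day 7 cells with an Igfbp5 UMI, 5 (21.7%) held one of these 2 enzymes.

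Other genes of this division were Adh1 (247 and 22.3 CPM, ratio 11.1, 7.09–17.9), Gsta2 (156 and 11.5), Insl3, a Leydig peptide hormone (59.4 and 7.42), and Scarb1 (206 and 69.2), all higher with Igfbp5. The cell with most Hsd3b1 gave 29 of the 79 Adh1 UMIs and 20 of the 50 Gsta2 UMIs of the cells with Igfbp5. Acta2 (532 and 1611), Tagln (119 and 652) and Dcn (472 and 866) were lower with it. Among the other rule genes, Cilp (344 and 701), Mfap4 (194 and 354) and Fmod (68.8 and 172) were lower too. Eln (260 and 342) and Mfap2 (275 and 279) were within 1.5-fold. A member without Igfbp5 could pass the cut only through these genes, so the choice of cells shapes their levels. Outside the rule, Fbln5 (454 and 513), Col3a1 (7026 and 6872), Pcsk5 (241 and 326) and Ptch1 (59.4 and 51.9) were within 1.5-fold between the 2 groups. Smoc2 was higher with Igfbp5 (1523 and 588), yet in the 216 cells without Igfbp5 it was still 17.0 times the level of the lower 50% (14.3–20.3), and Sfrp1 18.6 times (14.7–23.7).

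In the 216 members without Igfbp5 against the lower 50%, proteoglycans had 5 of 6 higher with a median of 1.84. Collagens had 7 of 18 higher and 2 lower, with a median of 0.43. Contractile genes had 14 of 23 lower and 1 higher, with a median of -0.64. Mitosis genes had 22 of 28 lower and none higher, with a median of -0.86. The share called over all genes was not computed for this contrast, so these counts have no share to be read beside. The Leydig list had 3 of 9 higher and 3 lower with a median of -0.20.

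**Figure D5:**
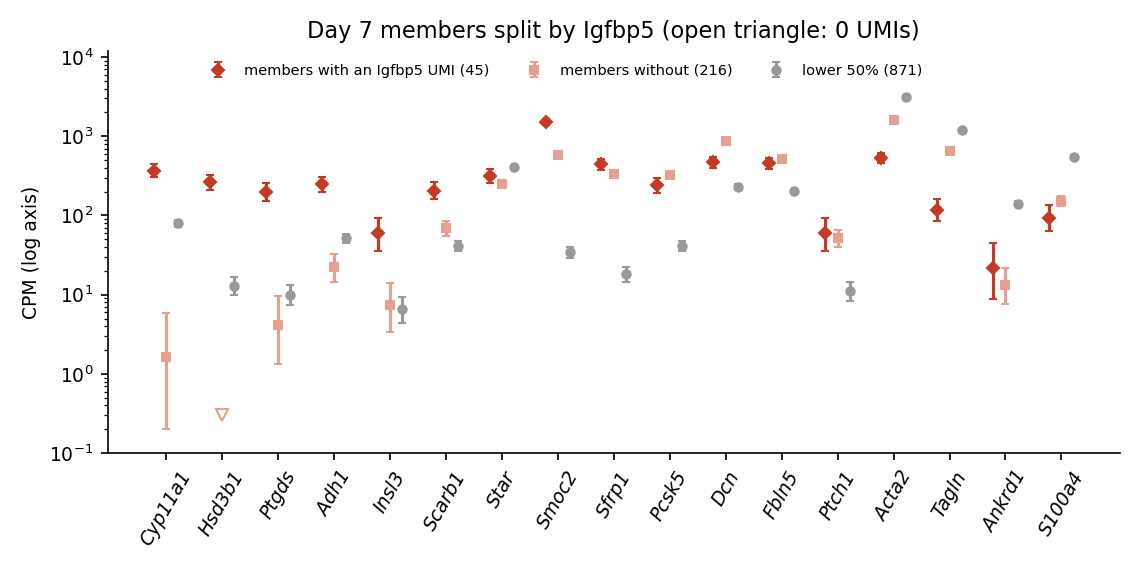
CPM (y axis, log scale) of 17 genes in the 45 day 7 members with an Igfbp5 UMI, the 216 members without and the 871 cells of the lower 50%, with exact Poisson 95% intervals and open triangles for 0 UMIs. Cyp11a1 and Hsd3b1 are at 1.65 and 0 without Igfbp5, and their higher summed levels with it come from 8 and 4 cells. Of their UMIs with Igfbp5, 1 cell gave 47 of 118 for Cyp11a1 and 79 of 85 for Hsd3b1. Smoc2, Sfrp1, Pcsk5, Dcn, Fbln5 and Ptch1 lie above the lower 50% in both.

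When all 1742 day 7 cells were clustered without the 6 score genes, members lay in all of 8 clusters, in unequal shares. Of these clusters, the one led by Cyp11a1, Adh1, Hsd3b1 and Smoc2 held 102 members among 182 cells (56.0%, exact Clopper-Pearson 95% interval 48.5–63.4%), and the one led by Fam180a, Itga1 and Pdlim3 held 47 among 155 (30.3%, 23.2–38.2%). A larger cluster led by Gldn and Srgn held 48 among 381 (12.6%), and one led by the S phase genes Ccne2 and Hells held 30 among 193 (15.5%). The cluster led by Ankrd1, Cnn1 and Gabrb1 held 3 members among 298 cells (1.01%, 0.21–2.91%), and the one led by Rsad2 and Ifit3 held 6 among 312 (1.92%). At a finer resolution 133 members lay among the 243 cells of 1 cluster led by Smoc2, Sfrp1 and Gpx3, apart from a cluster of 17 cells led by Cyp11a1, Adh1 and Hsd3b1 that held 3 members. At this finer resolution, the cluster led by Grem1 and Tnc (99 cells) and the one led by Prl2c2 and Sfrp2 (133 cells) held no member. At the first resolution the cluster led by the mitosis genes Cenpa and Cdc20 held 20 members among 198 cells (10.1%). No cluster was given a cell type name, and these shares describe where the members lay in 1 library.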

How the data were processed

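Single-cell RNA was read from 3 Drop-seq libraries. The authors used STAR on the GRCm38 genome and Drop-seq tools, and the values they deposited are raw UMI counts for each gene in each barcode. The merged table of filtered cells was used; no entry differed from the counts per day. Its 495 columns of other cells entered no step, and the gene annotation release used is not given in the sources used here. The members and gene lists were chosen with earlier results of these data known. Cells needed 1500 UMIs, and ties in the score were ordered at random (seed 1). Levels are summed UMIs per 1000000 (CPM), and log2 ratios use a pseudocount of 1. Intervals are exact (Poisson, conditional binomial or Clopper-Pearson) and cover counting error only. Named genes were the score genes, list members with at least 50 UMIs, and the 15 highest and 15 lowest ratios at 100 CPM or more with no cell over 10% of the higher group; others were chosen after their values were seen. Scrublet called 2 of 2171 day 7 doublets, under the share at which it can be trusted, so doublets stayed in, and the 6% of cells with the highest scores (10 members) were removed in an alternative. Leiden clusters in scanpy 1.11.5 used 2000 genes, 20 components, 20 neighbours and resolution 0.8 or 1.2. Positions came from GENCODE M21. Splitting and ratios were tested on simulated data. Python 3.11.15 with numpy 2.4.6 and scipy 1.17.1 was used. Alternatives are in the closing section. Some genes of the lists are not reported here.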

Additional observations from a re-analysis of the deposited data

Results flagged for a closer look

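Ratios of the top 15% over the lower 50% of the score turned direction between days 7 and 14 for 4 named genes and 4 gene lists, counting a gene only when it differed at least 1.5-fold with intervals excluding 1 on both days, and a list only with 5 or more measured genes and medians of the interval bounds on opposite sides of 0. The limit of 50 UMIs was not applied to genes here, and Hbegf fell short of it on day 14. Each day is 1 library, and the difference between days was not tested. On the log2 scale, with day 7 first, Ccnd1 stood at -1.77 and 0.65, Hbegf at -1.70 and 2.06 (from 9 and 7 UMIs on day 14), Aldh1a3 at -1.69 and 1.18, and Pvrl3 at -1.66 and 0.99. The contractile list had medians of -0.67 and 0.69, the Leydig and steroid list 0.71 and -1.83, the Sertoli list 0.66 and -0.39, and the mitochondrially encoded genes 0.19 and -0.28. The Leydig value of day 7 fell without the cell with most Hsd3b1, as given above, and was -0.20 in the members without Igfbp5. It covered 10 measured genes and that of day 14 covered 15. Other sign changes fell short of these limits, such as S1pr3 (-2.24 and 0.88), Plk2 (-1.59 and 1.14), Apoe (3.13 and -0.22) and the matrix myofibroblast genes of the study (-0.70 and 0.84, with 4 measured on day 14). On day 14, 11 of 15 Leydig genes were called lower in the top 15%, among them Cyp17a1 (89.0 against 1271 CPM), Cyp11a1 (448 against 2923) and Insl3 (673 against 2387).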

How the results depend on the processing

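No paired analysis was possible because each day has 1 library. Over 24 alternatives, 20 of them planned, the 30 named genes kept their direction in every one, and 183 of 191 summary values moved by less than their interval or 1.5 times. Of 864 values of single genes and other lists, 176 moved further and 2 reversed. The mitosis median of day 7 moved to -0.17 with cells ranked within bins of total UMIs, to -0.20 with the top 25% and to -0.13 without Mfap2 in the score, and had no value with mitotic cells removed. The collagen median moved to 0.30 with cells ranked on a random part of their UMIs and measured on the rest, to 0.29 with the top 10% and to 0.29 against all other cells. The contractile median moved to -0.50 with the top 25%, and 477 genes were called lower with a pseudocount of 10 CPM. The Leydig list reversed to -0.15 with Igfbp5 left out of the score and to -0.38 without cells holding an Igfbp5 UMI. The cause of these moves was not tested. The elastic fibre median on day 7 ranged over 0.073–0.28, that of day 4 over 0.13–0.32 and that of day 14 over 0.52–1.17, and genes called higher on day 7 ranged over 525–1089. Alternatives on alike barcodes, Igfbp5 and the cell with most Hsd3b1 were added after the data were seen. Genes under about 50 UMIs and single rule-gene UMIs per cell limit the rest.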
